A study of Mus musculus with 16 samples.

Results

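Interferon-stimulated genes, with the sensors and transcription factors that control them, were followed in mouse colon organoids treated with tumour necrosis factor alpha (TNFa). The set was a list of 41 gene symbols, and the brightest probe set of a gene, by its mean over 16 microarrays, stood for that gene. Of these, 40 were found among the 18850 named genes of the array, and Ifi44 was not analysed here. A gene was tested if its signal exceeded its array's 40th percentile on at least 4 of the 16 arrays, which left 28 members among 11766 tested genes. The other 12 members were dim.

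Colon organoids are epithelial structures grown in culture from colon tissue, here in the ENR growth medium. They fell into 4 groups of 4 samples: ATF2/7 fl organoids with TNFa, ATF2/7 fl organoids without TNFa, WT organoids with TNFa and WT organoids without TNFa. TNFa was recombinant, at 50 ng/ml for 12 h. ATF2 and ATF7 are related transcription factors of the bZIP family. The labels of the mutant samples contradict one another: one gives ATF2 fl/fl with ATF7 KO, another ATF2 KO with ATF7 floxed, and none names a Cre or says whether a floxed allele was recombined. No label says that the 4 samples of a group came from separate mice or cultures, so p-values measure only the spread between these samples, which may be technical.

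Interferons bind cell-surface receptors that activate JAK kinases and STAT proteins. STAT2 and IRF9 are parts of a complex that switches on antiviral genes. Cytosolic sensors such as RIG-I, encoded by Ddx58, detect viral RNA and lead through IRF3 and IRF7 to interferon production. TNFa acts mainly through NF-kB, and Irf1 is a known target of both pathways. In the gut, epithelial cells are an early site of antiviral defence and respond to type I and type III interferons.

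Promoters are shown for 5 of the called members, which differ in the motifs they hold, to set beside their values below. They are not a fair sample of the called members, since each window shown holds a motif. The windows of Dtx3l and Irf7, which also rose, hold neither motif described here and are not shown. They cover 250 bases before to 50 bases after the annotated start, 5′ to 3′ on the strand of the gene, from RefSeq on GRCm38.p6. Capitals mark every match to GAAANNGAA, a motif of interferon regulatory factors, or TTCNNNGAA, a motif of STAT proteins, on either strand, and matches may overlap. The windows are chr11:53769764-53770063 (+) for the first of 2 Irf1 starts, chr4:40239776-40240075 (-) for Ddx58, chr4:156200769-156201068 (-) for Isg15, chr7:141010695-141010994 (-) for Ifitm3 and chr8:71537423-71537722 (-) for Bst2.
Irf1: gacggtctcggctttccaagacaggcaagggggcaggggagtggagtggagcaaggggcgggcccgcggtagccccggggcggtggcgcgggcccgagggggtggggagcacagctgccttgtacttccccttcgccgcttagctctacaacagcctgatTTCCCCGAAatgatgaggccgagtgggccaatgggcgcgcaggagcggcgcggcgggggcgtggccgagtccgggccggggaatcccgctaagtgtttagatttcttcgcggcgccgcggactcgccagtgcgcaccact
Ddx58: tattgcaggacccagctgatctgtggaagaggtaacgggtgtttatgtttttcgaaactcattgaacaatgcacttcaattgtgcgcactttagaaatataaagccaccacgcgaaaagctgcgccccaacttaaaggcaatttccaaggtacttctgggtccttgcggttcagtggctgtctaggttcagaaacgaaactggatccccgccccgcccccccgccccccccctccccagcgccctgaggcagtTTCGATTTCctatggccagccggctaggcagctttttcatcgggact
Isg15: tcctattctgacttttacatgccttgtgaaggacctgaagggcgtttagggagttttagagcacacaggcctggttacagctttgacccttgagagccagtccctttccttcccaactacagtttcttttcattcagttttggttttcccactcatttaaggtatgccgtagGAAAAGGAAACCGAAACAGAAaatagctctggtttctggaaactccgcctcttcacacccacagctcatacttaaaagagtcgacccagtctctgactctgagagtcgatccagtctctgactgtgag
Ifitm3: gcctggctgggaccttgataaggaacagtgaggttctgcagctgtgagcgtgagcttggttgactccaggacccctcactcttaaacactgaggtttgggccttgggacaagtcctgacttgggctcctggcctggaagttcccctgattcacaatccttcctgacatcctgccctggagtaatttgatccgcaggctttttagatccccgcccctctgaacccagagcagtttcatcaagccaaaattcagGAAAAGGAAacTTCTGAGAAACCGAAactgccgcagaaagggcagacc
Bst2: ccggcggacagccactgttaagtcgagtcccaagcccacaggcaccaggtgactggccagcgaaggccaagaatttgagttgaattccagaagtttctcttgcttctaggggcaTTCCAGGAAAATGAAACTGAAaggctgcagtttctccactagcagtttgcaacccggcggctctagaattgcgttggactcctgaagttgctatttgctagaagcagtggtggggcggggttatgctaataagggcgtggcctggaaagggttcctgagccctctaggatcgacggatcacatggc

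The Irf1 window held a STAT motif whose first base lay at -90 and no IRF motif. The Isg15 window held 3 overlapping IRF motifs, at -78, -72 and -66. In Bst2, IRF motifs began at -130 and -124, beside a STAT motif at -136. In Ddx58 an IRF motif began at 4, and in Ifitm3 IRF motifs began at 3 and 20 with a STAT motif at 14, all just after the start. Promoters were matched for 32 of the 41 members, 39 windows in all. The other members are Dhx58, Mx1, Mx2, Oas2, Parp9, Parp14, Rtp4, Usp18 and Zbp1. The IRF motif occurred in 18 of these 39 windows (46.2%), against 8.56% of 32841 RefSeq windows of the same length. The STAT motif occurred in 11 of 39 (28.2%), against 8.30% of all windows. A match describes letters, not binding. Among tested members, 4 of the 12 with an IRF motif rose with TNFa in either genotype, namely Bst2, Ddx58, Ifitm3 and Isg15. Of the 12 without one, 3 rose, namely Dtx3l, Irf1 and Irf7. Parp14 and Rtp4, which rose in WT, are outside this tally. Of all tested genes 3.51% rose in ATF2/7 fl and 5.03% in WT. The share that rose in either genotype, and shares for all genes with or without the motif, were not computed. The tally therefore says nothing on whether the motif goes with the rise.

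The deposited values are log2 signals, with array medians between 7.02 and 7.11. A signal of 6.56 log2, the highest of the 40th percentiles of the arrays, is used as the limit of dimness, below which a fold change is approximate. Array WT + TNFa 2 stood apart: its mean correlation with the other arrays of its group was 0.989, against 0.993 for those arrays with their own group. All 9 epithelial markers on the array exceeded the 40th percentile on all 16 arrays, against 1 of 8 leukocyte markers (Lyz2), 1 of 7 fibroblast and smooth muscle markers (Col1a1) and 0 of 5 endothelial markers. Of the epithelial markers, the goblet cell mucin gene Muc2 fell with TNFa in WT (-0.25 log2, adjusted p = 0.0216), and Cdx2, a factor of intestinal identity, was lower in ATF2/7 fl than in WT without TNFa (-0.52 log2, adjusted p = 0.0158). Their part in the results below was not tested. Atf2 averaged 10.12 ± 0.01 in ATF2/7 fl + TNFa, 10.15 ± 0.03 in ATF2/7 fl, 10.18 ± 0.02 in WT + TNFa and 10.16 ± 0.14 in WT (SD, n = 4). It did not differ between genotypes with TNFa (-0.06, limma adjusted p = 0.729) or without it (-0.02, adjusted p = 0.942), and the position of its probes is not given, so the signal does not check the deletion. Atf7 was not analysed here.

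With TNFa, a part of the interferon set rose in both genotypes, among them the RNA sensor gene Ddx58 and the transcription factor gene Irf1. In ATF2/7 fl organoids 4 of 28 tested members rose (14.3%) and 0 fell: Ddx58, Irf1, Ifitm3 and Dtx3l. Across all tested genes, 3.51% rose and 2.47% fell in that comparison. In WT organoids 8 of 28 rose (28.6%) and 1 fell (3.57%), against 5.03% of all tested genes that rose and 5.75% that fell. The 8 were Isg15, Ddx58, Irf1, Rtp4, Parp14, Irf7, Dtx3l and Bst2, and the 1 that fell was Irf8. The median change of tested members was 0.09 log2 in ATF2/7 fl and 0.16 log2 in WT, against 0.01 log2 for all tested genes in each. The members were chosen with earlier results of these data known. Their shares, here and below, therefore describe the set and are no independent test of it. Without array WT + TNFa 2, 10 members were called in WT, with Trim25 (0.27 log2, adjusted p = 0.0233) as the addition, and 4 in ATF2/7 fl.

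Members dim in one group could pass the filter through the group in which they were bright. Among the 24 members whose mean over all arrays exceeded 6.56 log2, 4 rose in ATF2/7 fl (16.7%), against 3.57% of all such genes. In WT 7 of these 24 rose (29.2%) and 1 fell, against 5.14% and 5.89% of all such genes. That mean includes the TNFa arrays, so the cut reduces such selection and does not remove it. Of the risen members among these 24, 2 in WT were still dim without TNFa, Isg15 (6.19 log2) and Parp14 (6.47). In ATF2/7 fl this held for 1, Ddx58 (6.39). Rtp4, which also rose in WT but is outside the 24, averaged 6.07 log2 in WT without TNFa. Irf1, Ddx58 and Dtx3l were called in both genotypes. For each of the 9 members called in WT the estimate in ATF2/7 fl had the same sign, as had the WT estimate for each of the 4 called in ATF2/7 fl. Over all 28 tested members, 19 had the same sign in both genotypes. Some of the agreeing ATF2/7 fl estimates were small, 0.01 log2 for Rtp4 and 0.06 log2 for Bst2. The share of all called genes with such agreement was not computed. In bulk RNA a change in the share of a cell type and a change in RNA per cell cannot be told apart.

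**Figure D1:**
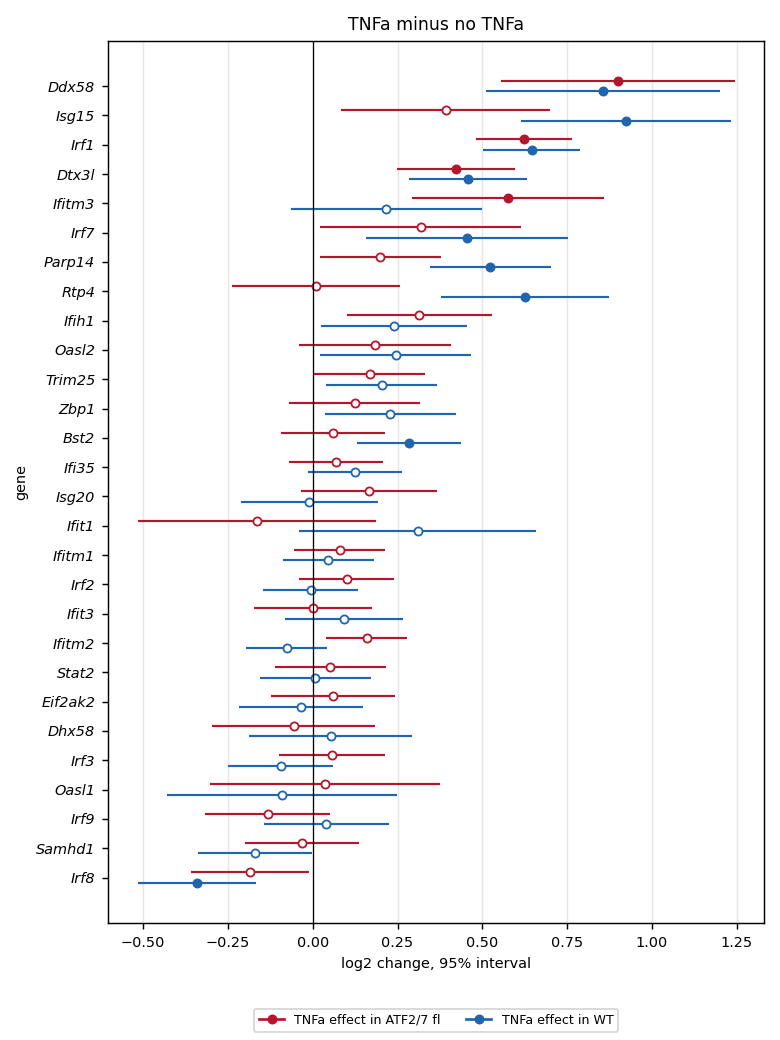
TNFa change of the 28 tested members in ATF2/7 fl and WT organoids, on the log2 scale, with 95% intervals of the limma fit. Filled points passed the adjusted threshold. Ddx58 and Irf1 lie well right of 0 in both genotypes, whereas Rtp4 lies right of 0 in WT and at 0 in ATF2/7 fl.

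Of the 3 tested cytosolic RNA sensor genes, Ddx58 was called in both genotypes. It read 7.35, 7.30, 7.47 and 7.06 log2 in ATF2/7 fl + TNFa, against 6.18, 6.40, 6.55 and 6.46 in ATF2/7 fl. In WT + TNFa it read 7.20, 7.39, 7.67 and 8.18, against 6.66, 6.91, 6.93 and 6.52 in WT. In each genotype all 4 treated samples lay above all 4 untreated ones, and untreated ATF2/7 fl organoids averaged 6.39 log2, below the limit of dimness. Ddx58 rose by 0.90 log2 in ATF2/7 fl (1.87-fold, SE 0.16, adjusted p = 0.00191) and by 0.86 log2 in WT (1.81-fold, SE 0.16, adjusted p = 0.00197). The difference of these effects was 0.04 log2 with an interval of -0.44 to 0.53. Ifih1, which encodes the long double-stranded RNA sensor MDA5, averaged 8.76 ± 0.04 in ATF2/7 fl + TNFa, 8.45 ± 0.20 in ATF2/7 fl, 8.81 ± 0.21 in WT + TNFa and 8.57 ± 0.09 in WT. Its TNFa difference was 0.31 log2 in ATF2/7 fl (adjusted p = 0.0885), where the groups did not overlap, and 0.24 log2 in WT (adjusted p = 0.158). Dhx58, which encodes LGP2, a regulator of both sensors, averaged 7.83 ± 0.12 in ATF2/7 fl + TNFa, 7.88 ± 0.23 in ATF2/7 fl, 7.69 ± 0.11 in WT + TNFa and 7.64 ± 0.21 in WT, and was not called.

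Of the 7 tested transcription factors, Irf1, an activator of antiviral and antigen presentation genes, had the smallest adjusted p. It read 9.15, 8.95, 8.91 and 8.93 log2 in ATF2/7 fl + TNFa, against 8.39, 8.39, 8.26 and 8.39 in ATF2/7 fl. The WT + TNFa samples read 8.84, 8.80, 8.96 and 9.06, against 8.25, 8.23, 8.31 and 8.28 in WT. Treated and untreated samples did not overlap in either genotype, and the treated samples of both genotypes covered much the same range. Irf1 rose by 0.62 log2 in ATF2/7 fl (1.54-fold, SE 0.07, adjusted p = 8.77e-06) and by 0.65 log2 in WT (1.56-fold, SE 0.07, adjusted p = 4.92e-06). The difference was -0.02 log2, with an interval of -0.22 to 0.18.

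Irf7, the factor that amplifies type I interferon production, read 8.03, 8.17, 8.46 and 8.01 log2 in ATF2/7 fl + TNFa, against 7.87, 8.13, 7.65 and 7.75 in ATF2/7 fl. Its WT + TNFa values were 8.46, 7.95, 8.04 and 8.43, against 7.66, 7.54, 7.81 and 8.05 in WT. Treated and untreated samples overlapped in both genotypes. Irf7 rose in WT by 0.46 log2 (1.37-fold, SE 0.14, adjusted p = 0.0466), and its change in ATF2/7 fl was 0.32 log2 (adjusted p = 0.269). The WT call is close to the threshold and was lost in 10 of 16 fits that each left out 1 array, with an adjusted p of up to 0.138: ATF2/7 fl + TNFa 1, 2 or 4, ATF2/7 fl 1 or 4, WT + TNFa 1 or 4, and WT 1, 2 or 3. It was also lost with no filter (0.0809), with arrays centred on their medians (0.0666) and with only the WT groups fitted (0.0899).

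Irf8, known mainly from myeloid and B cells, was the member that fell. It read 8.17, 8.15, 8.23 and 8.12 log2 in ATF2/7 fl + TNFa, against 8.29, 8.31, 8.37 and 8.45 in ATF2/7 fl. With TNFa the WT samples had 8.27, 8.23, 8.16 and 7.97, against 8.58, 8.24, 8.54 and 8.64 without TNFa. The WT groups overlapped through the second untreated sample, whereas the ATF2/7 fl groups did not overlap. Irf8 fell by 0.34 log2 in WT (1.27-fold, SE 0.08, adjusted p = 0.0120), and its change in ATF2/7 fl was -0.19 log2 (adjusted p = 0.276). With only the WT groups fitted the call was lost (adjusted p = 0.0804). Lyz2, a lysozyme gene of myeloid cells, fell in WT as well, by 0.74 log2 (adjusted p = 0.0244). Summed over 8 leukocyte markers, the linear signal was 844 to 988 in ATF2/7 fl + TNFa, 750 to 845 in ATF2/7 fl, 624 to 684 in WT + TNFa and 679 to 802 in WT. Without Lyz2 the sums were 393 to 483 in ATF2/7 fl + TNFa, 400 to 488 in ATF2/7 fl, 407 to 502 in WT + TNFa and 387 to 479 in WT. Of the 8 markers 5 exceeded the 40th percentile on 0 arrays. The part of such cells in the Irf8 result was not tested.

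The factors of the interferon receptor pathway were bright and were not called. Stat2 averaged 8.64 ± 0.12 log2 in ATF2/7 fl + TNFa, 8.59 ± 0.05 in ATF2/7 fl, 8.79 ± 0.13 in WT + TNFa and 8.79 ± 0.12 in WT. Irf9, its DNA-binding partner, averaged 7.56 ± 0.13 in ATF2/7 fl + TNFa, 7.69 ± 0.17 in ATF2/7 fl, 7.69 ± 0.07 in WT + TNFa and 7.65 ± 0.13 in WT (SD, n = 4). Their groups overlapped within both genotypes. Irf3, the factor activated by viral sensing, averaged 9.65 ± 0.02 in ATF2/7 fl + TNFa, 9.59 ± 0.04 in ATF2/7 fl, 9.50 ± 0.18 in WT + TNFa and 9.59 ± 0.08 in WT. Irf2, an antagonist of Irf1, averaged 8.95 ± 0.08 in ATF2/7 fl + TNFa, 8.85 ± 0.09 in ATF2/7 fl, 8.81 ± 0.10 in WT + TNFa and 8.82 ± 0.08 in WT. A test that was not passed does not show equal levels.

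Isg15 encodes a ubiquitin-like protein that is conjugated to other proteins during antiviral responses. It read 6.73, 6.67, 7.15 and 6.62 log2 in ATF2/7 fl + TNFa, against 6.41, 6.65, 6.14 and 6.41 in ATF2/7 fl. In WT + TNFa it read 7.52, 7.18, 6.85 and 6.92, against 6.40, 6.04, 6.10 and 6.22 in WT. The WT groups did not overlap, the ATF2/7 fl groups did, and both untreated groups averaged below the limit of dimness. Isg15 rose in WT by 0.92 log2 (1.90-fold, SE 0.15, adjusted p = 0.000393), and its change in ATF2/7 fl was 0.39 log2 (adjusted p = 0.162). The difference of the effects was -0.53 log2 with an interval of -0.97 to -0.09, which was not called (adjusted p = 0.573). Trim25, a ligase for ISG15 and RIG-I, averaged 9.37 ± 0.07 in ATF2/7 fl + TNFa, 9.20 ± 0.07 in ATF2/7 fl, 9.36 ± 0.13 in WT + TNFa and 9.15 ± 0.14 in WT. Its changes were 0.17 log2 in ATF2/7 fl (adjusted p = 0.294) and 0.20 log2 in WT (adjusted p = 0.111). Usp18, the protease that removes ISG15, was dim, at 5.69 to 6.20 log2.

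**Figure D2:**
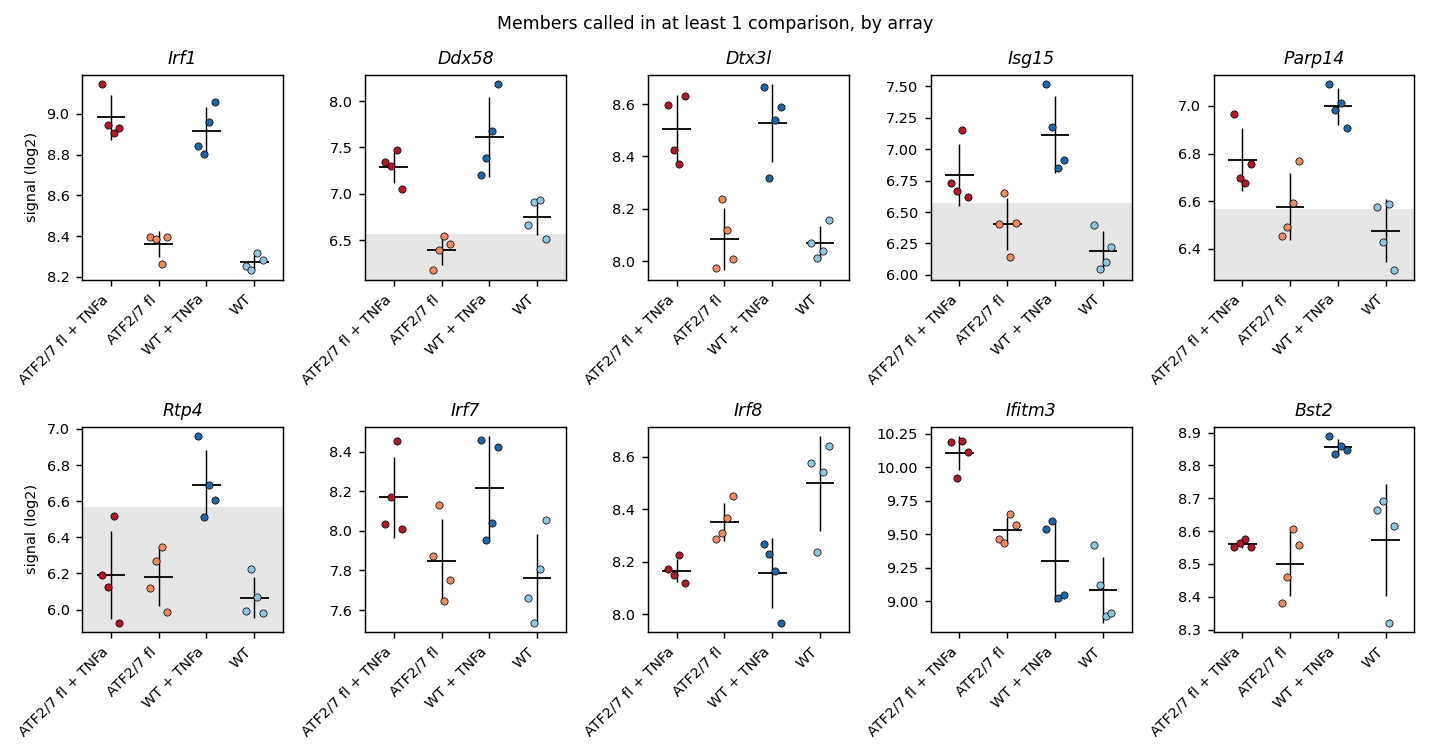
Signal (log2) of the 10 called members on each of the 16 arrays, with the group mean ± SD (n = 4), ATF2/7 fl groups left of WT groups and TNFa left of no TNFa. The grey area lies below 6.56 log2, where Isg15, Rtp4, Ddx58 and Parp14 have untreated samples.

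The IFIT proteins bind foreign RNA and block its translation. Of 2 tested members, 0 were called with TNFa by limma in either genotype, and 0 had an unadjusted p under 0.05, against 15.7% of all tested genes in ATF2/7 fl and 23.5% in WT, so 2 genes say little. Ifit1 exceeded the 40th percentile on 6 arrays and averaged 6.26 ± 0.26 log2 in ATF2/7 fl + TNFa, 6.42 ± 0.13 in ATF2/7 fl, 6.66 ± 0.39 in WT + TNFa and 6.35 ± 0.22 in WT. Ifit3 averaged 7.00 ± 0.10 in ATF2/7 fl + TNFa, 7.00 ± 0.18 in ATF2/7 fl, 6.92 ± 0.02 in WT + TNFa and 6.83 ± 0.11 in WT. Ifit2 was dim, at 4.69 to 5.62 log2.

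Among the membrane restriction factors, Ifitm3, which hinders fusion of viruses with endosomes, rose in ATF2/7 fl. It read 10.19, 9.92, 10.20 and 10.11 log2 in ATF2/7 fl + TNFa, against 9.46, 9.43, 9.66 and 9.57 in ATF2/7 fl. The WT + TNFa samples read 9.54, 9.60, 9.03 and 9.05, against 9.42, 9.12, 8.89 and 8.91 in WT. Groups did not overlap in ATF2/7 fl and did in WT, where samples 1 and 2 exceeded samples 3 and 4 both with TNFa and without it. The change was 0.58 log2 in ATF2/7 fl (1.49-fold, SE 0.13, adjusted p = 0.0130) and 0.22 log2 in WT (adjusted p = 0.359). Ifitm1, Ifitm2 and Ifitm3 neighbour one another on chromosome 7 and have similar sequences, and no source used here says whether their probe sets share signal. Ifitm2 averaged 11.07 ± 0.04 in ATF2/7 fl + TNFa, 10.91 ± 0.09 in ATF2/7 fl, 10.94 ± 0.04 in WT + TNFa and 11.01 ± 0.06 in WT, with TNFa differences of 0.16 log2 in ATF2/7 fl (adjusted p = 0.133) and -0.08 log2 in WT (adjusted p = 0.458). Ifitm1 averaged 7.80 ± 0.01 in ATF2/7 fl + TNFa, 7.72 ± 0.07 in ATF2/7 fl, 7.63 ± 0.11 in WT + TNFa and 7.59 ± 0.10 in WT.

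Bst2, also called tetherin, holds budding virus at the cell surface. It read 8.55, 8.56, 8.58 and 8.55 log2 in ATF2/7 fl + TNFa, against 8.38, 8.46, 8.61 and 8.56 in ATF2/7 fl. Its WT + TNFa values were 8.89, 8.83, 8.86 and 8.85, against 8.66, 8.69, 8.32 and 8.62 in WT. All 4 treated WT samples exceeded every other sample, and treated and untreated ATF2/7 fl samples overlapped. Bst2 rose in WT by 0.28 log2 (1.22-fold, SE 0.07, adjusted p = 0.0173), and its change in ATF2/7 fl was 0.06 log2 (adjusted p = 0.817). With only the WT groups fitted the WT call was lost (adjusted p = 0.0865).

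Parp14, an ADP-ribosyltransferase, and Dtx3l, a ubiquitin ligase that partners with PARP9, lie side by side on chromosome 16 with Parp9. Dtx3l read 8.60, 8.42, 8.37 and 8.63 log2 in ATF2/7 fl + TNFa, against 7.97, 8.24, 8.12 and 8.01 in ATF2/7 fl. With TNFa the WT samples had 8.66, 8.32, 8.54 and 8.59, against 8.07, 8.01, 8.04 and 8.16 without TNFa. No treated sample overlapped an untreated one of its genotype. Dtx3l rose by 0.42 log2 in ATF2/7 fl (1.34-fold, SE 0.08, adjusted p = 0.00362) and by 0.46 log2 in WT (1.37-fold, SE 0.08, adjusted p = 0.00124).

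Parp14 read 6.97, 6.70, 6.68 and 6.76 log2 in ATF2/7 fl + TNFa, against 6.45, 6.49, 6.59 and 6.77 in ATF2/7 fl. In WT + TNFa it read 7.09, 6.98, 7.01 and 6.91, against 6.57, 6.43, 6.59 and 6.31 in WT. The WT groups did not overlap and the ATF2/7 fl groups did. Parp14 rose in WT by 0.52 log2 (1.44-fold, SE 0.08, adjusted p = 0.000470), and its change in ATF2/7 fl was 0.20 log2 (adjusted p = 0.244). Parp9 exceeded the 40th percentile on 1 array and was not tested.

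Rtp4, known as a chaperone-like protein induced by type I interferon, read 6.19, 6.13, 6.52 and 5.93 log2 in ATF2/7 fl + TNFa, against 6.12, 6.27, 6.35 and 5.99 in ATF2/7 fl. The WT + TNFa samples read 6.96, 6.51, 6.69 and 6.61, against 5.99, 6.22, 6.07 and 5.98 in WT. The WT groups did not overlap, and the signal exceeded the 40th percentile on 4 arrays, 3 of WT + TNFa and 1 of ATF2/7 fl + TNFa, so the fold changes are approximate. Rtp4 rose in WT by 0.63 log2 (1.54-fold, SE 0.12, adjusted p = 0.00180), and its change in ATF2/7 fl was 0.01 log2 (adjusted p = 0.987).

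The enzymes that act on RNA and nucleotides gave 0 calls with TNFa by limma among 5 tested members in either genotype, with 0 at an unadjusted p under 0.05 in ATF2/7 fl and 2 in WT. Of all tested genes 15.7% had such a p in ATF2/7 fl and 23.5% in WT, so a count of this size over 5 genes is near the background. Eif2ak2, encoding the kinase PKR, averaged 8.50 ± 0.11 log2 in ATF2/7 fl + TNFa, 8.45 ± 0.09 in ATF2/7 fl, 8.53 ± 0.20 in WT + TNFa and 8.56 ± 0.05 in WT. Samhd1, a nucleotide hydrolase, averaged 6.90 ± 0.10 in ATF2/7 fl + TNFa, 6.93 ± 0.08 in ATF2/7 fl, 6.84 ± 0.16 in WT + TNFa and 7.00 ± 0.10 in WT. The nuclease gene Isg20 averaged 8.54 ± 0.06 in ATF2/7 fl + TNFa, 8.37 ± 0.23 in ATF2/7 fl, 8.60 ± 0.15 in WT + TNFa and 8.61 ± 0.07 in WT. The TNFa difference of Samhd1 in WT was -0.17 log2 (adjusted p = 0.206), through lower treated values that overlapped the untreated ones. Oasl1, related to the oligoadenylate synthetases, averaged 7.95 ± 0.21 in ATF2/7 fl + TNFa, 7.91 ± 0.08 in ATF2/7 fl, 7.88 ± 0.42 in WT + TNFa and 7.97 ± 0.21 in WT. Its relative Oasl2 exceeded the 40th percentile on 5 arrays and averaged 6.47 ± 0.12 in ATF2/7 fl + TNFa, 6.29 ± 0.19 in ATF2/7 fl, 6.48 ± 0.15 in WT + TNFa and 6.24 ± 0.18 in WT.

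Of the remaining effectors, Zbp1, a sensor of Z-form nucleic acids that can start cell death, averaged 6.47 ± 0.06 in ATF2/7 fl + TNFa, 6.34 ± 0.06 in ATF2/7 fl, 6.50 ± 0.19 in WT + TNFa and 6.27 ± 0.18 in WT. The 40th percentile was exceeded on 4 arrays, and its TNFa difference in WT was 0.23 log2 (adjusted p = 0.127). Ifi35, a partner of NMI, averaged 8.54 ± 0.07 in ATF2/7 fl + TNFa, 8.47 ± 0.15 in ATF2/7 fl, 8.52 ± 0.02 in WT + TNFa and 8.40 ± 0.04 in WT, and was not called.

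Several of the best-known interferon-induced genes were at the low end of the array in every group. The antiviral GTPase genes Mx1 and Mx2 read 3.92 to 4.73 and 5.04 to 5.55 log2, and the guanylate-binding protein genes Gbp2 and Gbp3 read 4.19 to 4.71 and 4.25 to 5.19. Gbp7, of the same family, had a median of 5.12 and a highest value of 5.46. Rsad2, which encodes viperin, read 4.54 to 5.33, Oas2 5.44 to 5.88 and Oas3 4.63 to 5.56. Xaf1 read 5.94 to 6.48 and Parp9 5.67 to 6.52. Of the 40 members on the array, 21 exceeded the 40th percentile on all 16 arrays and 10 on none. With no filter on signal, Gbp7 was called in WT (0.44 log2, adjusted p = 0.0267), at values below the limit of dimness on every array.

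**Figure D3:**
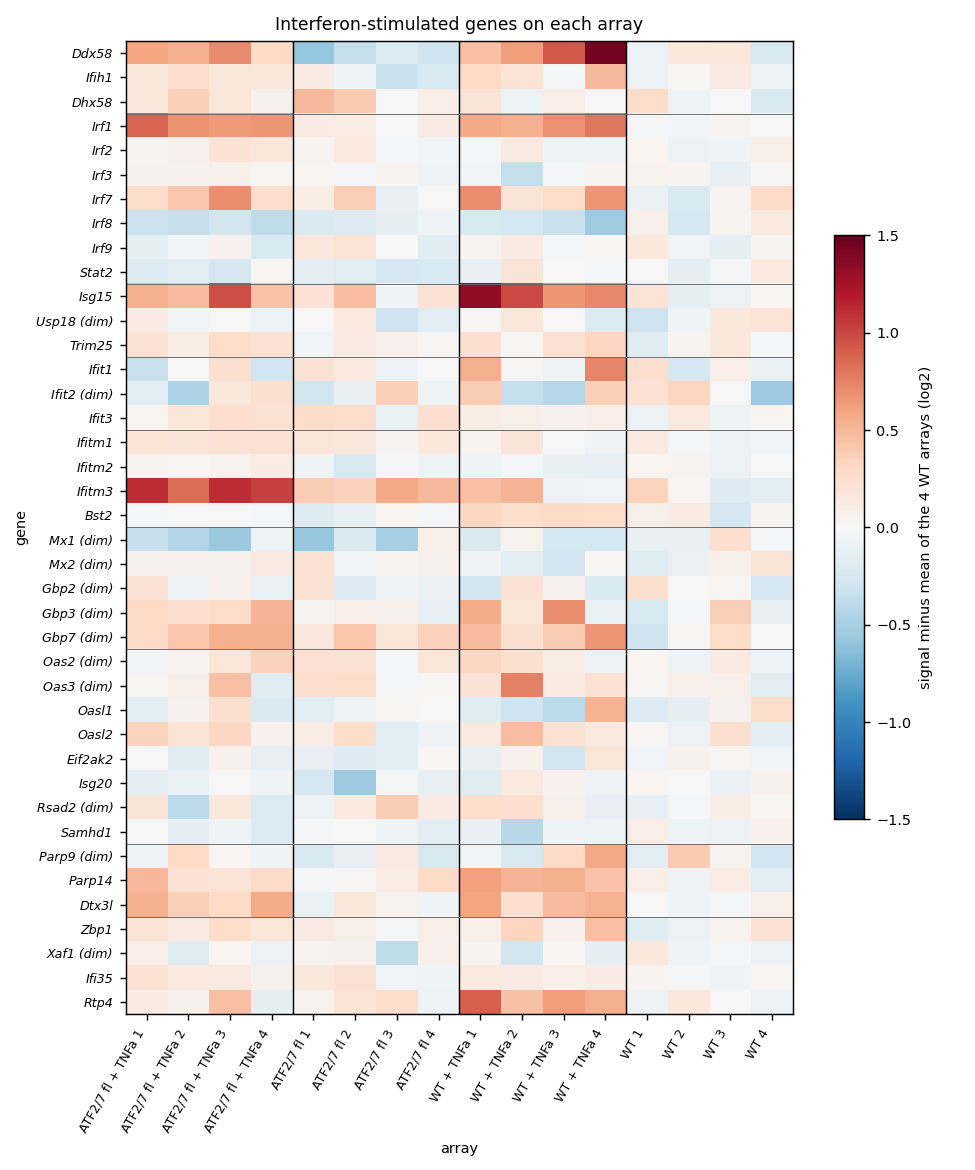
Signal of the 40 members on the 16 arrays, as the log2 difference from the mean of the 4 WT arrays without TNFa. Ddx58, Isg15 and Irf1 stand out in the TNFa columns, and Ifitm3 in the ATF2/7 fl columns.

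Between genotypes under TNFa, Ifitm3 was higher in ATF2/7 fl and Bst2 and Rtp4 were lower. That is 1 member higher and 2 lower of 28, against 1.56% of all tested genes higher and 1.13% lower. Rtp4 passed the filter mainly through WT + TNFa, where it was bright. Among the 24 members with a mean above 6.56 log2, 1 was higher and 1 lower, against 1.52% and 1.08% of all such genes. Of the 28, 8 (28.6%) had an unadjusted p under 0.05 by limma, against 13.6% of all tested genes. Besides the called members, these were Ifitm1 (0.17 log2, adjusted p = 0.230) and Ifitm2 (0.13, adjusted p = 0.287), with positive estimates. Isg15 (-0.32, adjusted p = 0.346), Ifit1 (-0.40, adjusted p = 0.276) and Parp14 (-0.22, adjusted p = 0.226) had negative ones. Ifitm3 was higher by 0.80 log2 (1.75-fold, SE 0.13, adjusted p = 0.00228), and all 4 ATF2/7 fl + TNFa samples exceeded all 4 WT + TNFa samples. Bst2 differed by -0.30 log2 (1.23-fold lower, SE 0.07, adjusted p = 0.0370), also without overlap. Rtp4 differed by -0.50 log2 (1.42-fold lower, SE 0.12, adjusted p = 0.0276), and the highest ATF2/7 fl + TNFa sample, at 6.52, overlapped the lowest WT + TNFa sample, at 6.51. The Bst2 call was lost (adjusted p of up to 0.0984) without any 1 of the 4 ATF2/7 fl + TNFa arrays or without WT + TNFa 1, 3 or 4. The Rtp4 call was lost (up to 0.106) without ATF2/7 fl + TNFa 1, 2 or 4 or WT + TNFa 1 or 3. Without array WT + TNFa 2 all 3 calls remained. With no filter on signal the Bst2 (0.0753) and Rtp4 (0.0503) calls were both lost, Rtp4 was also lost with only these 2 groups fitted (0.0964) and was not tested with the filter at the 60th percentile, and Bst2 was lost with arrays centred on their medians (0.0551). Lyz2 was also higher in ATF2/7 fl under TNFa, by 1.25 log2 (2.38-fold, adjusted p = 0.00177), and its part in these results was not tested.

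Without TNFa, 0 of 28 members were called between genotypes by limma, against 2.48% of all tested genes, and 5 (17.9%) had an unadjusted p under 0.05, against 13.3% of all tested genes, a share close to the members'. These were Ifitm3, Stat2, Isg20, Ddx58 and Dhx58. For Ifitm3 the difference was 0.44 log2 (adjusted p = 0.105), every ATF2/7 fl sample lay above every WT sample, and leaving out WT sample 1 gave 0.56 log2 (adjusted p = 0.0356). It was -0.36 log2 for Ddx58 (adjusted p = 0.342), -0.23 for Isg20 (adjusted p = 0.275), -0.19 for Stat2 (adjusted p = 0.267) and 0.25 for Dhx58 (adjusted p = 0.362).

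The TNFa effect itself was compared between genotypes as a difference, ATF2/7 fl minus WT. By limma 0 of 28 members were called, against 0.0085% of all tested genes, which is 1 gene, and 5 members (17.9%) had an unadjusted p under 0.05, against 7.27% of all tested genes. For Rtp4 the difference was -0.62 log2 with an interval of -0.97 to -0.26 (adjusted p = 0.345). For Parp14 it was -0.32 log2 (-0.58 to -0.07, adjusted p = 0.561), and for Bst2 -0.22 log2 (adjusted p = 0.677). For Ifitm2 it was positive, 0.24 log2 (0.07 to 0.40, adjusted p = 0.499), and Isg15 was the fifth of these members, at -0.53 log2. For Ifitm3 the difference was 0.36 log2 with an interval of -0.04 to 0.76. Calls in one genotype and not in the other are therefore not shown to differ between genotypes.

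**Figure D4:**
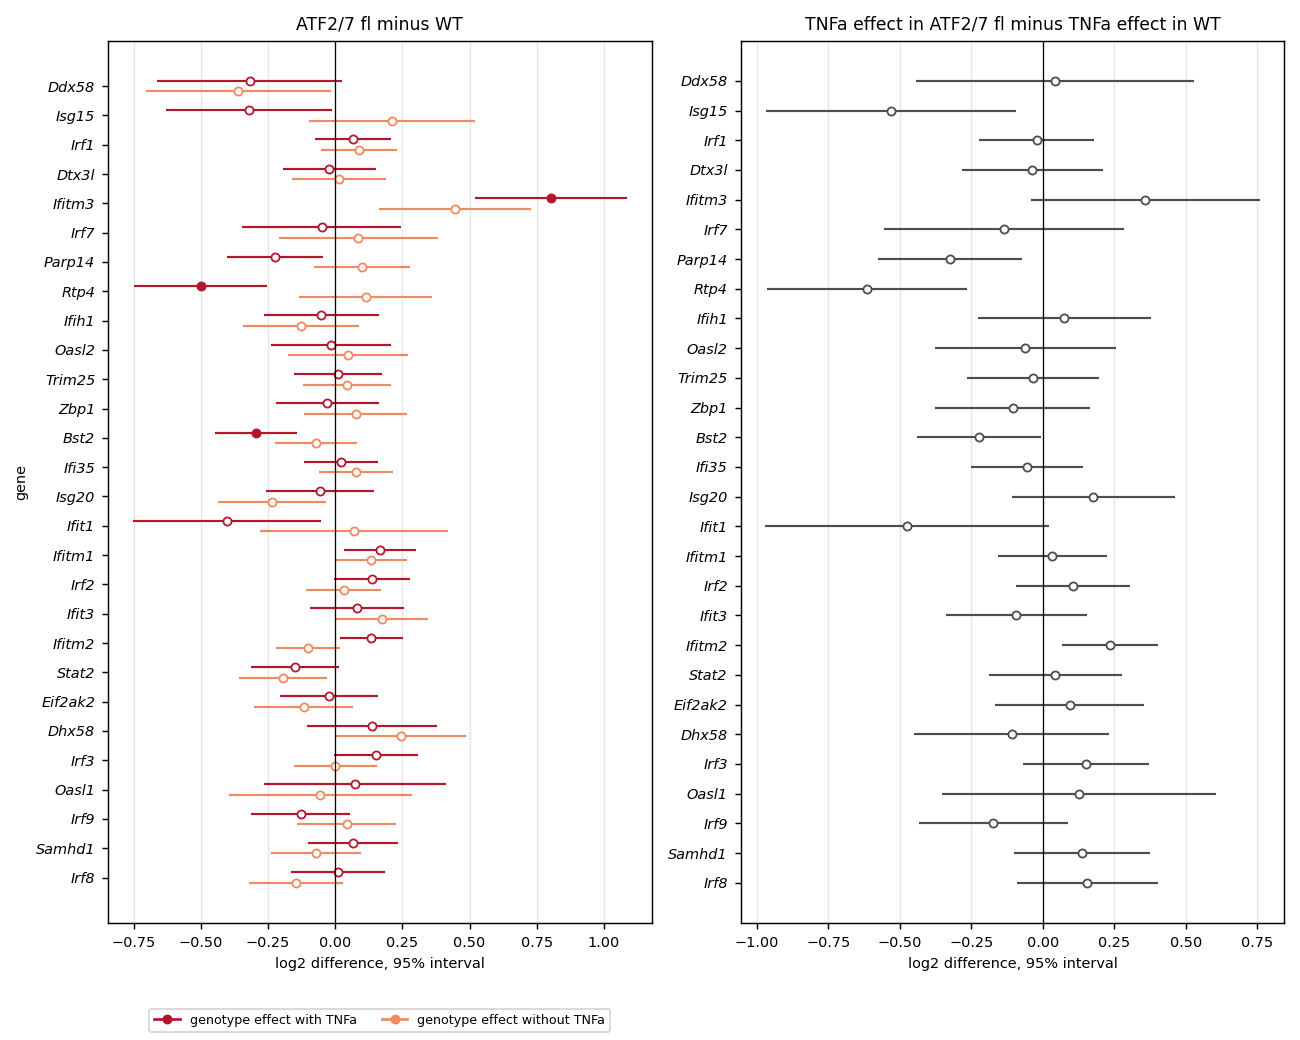
Genotype changes of the 28 tested members, ATF2/7 fl minus WT, with and without TNFa (left), and the difference of TNFa effects, ATF2/7 fl minus WT (right), on the log2 scale with 95% intervals. Filled points passed the adjusted threshold: Ifitm3, Bst2 and Rtp4 with TNFa, none without TNFa and none in the difference.

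Other genes of the pathway were read from 6 lists of genes that are not members, also chosen with earlier results known. Their counts stand beside 3.51% of all tested genes that rose and 2.47% that fell in ATF2/7 fl, and 5.03% that rose and 5.75% that fell in WT. Of 10 interferon ligand genes on the array 5 were tested, of 5 feedback inhibitors 4, and of 5 further IRF-family or related factors 3. Of these tested genes 0 were called with TNFa by limma in either genotype. The others were dim and not tested, among them Ifnb1, Ifng and the inhibitor gene Socs1, so nothing is said of their response. At an unadjusted p under 0.05 the ligands and inhibitors gave 0 in both, and the further factors 1 in ATF2/7 fl and 2 in WT. Of all tested genes 15.7% had such a p in ATF2/7 fl and 23.5% in WT. Of 10 tested receptor, kinase and STAT genes 1 rose in ATF2/7 fl, the interferon gamma receptor chain gene Ifngr2 (0.20 log2, adjusted p = 0.0128), and 0 were called in WT. In each genotype 2 of the 10 had an unadjusted p under 0.05, near the share of all tested genes.

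Of 7 tested sensor adaptor and kinase genes, 4 rose in ATF2/7 fl and 0 fell, while 3 rose and 2 fell in WT. Ikbke, encoding a kinase that activates IRF3 and IRF7, averaged 10.20 ± 0.11 log2 in ATF2/7 fl + TNFa, against 9.24 ± 0.10 in ATF2/7 fl, and 10.22 ± 0.15 in WT + TNFa, against 9.23 ± 0.09 in WT. It rose by 0.96 log2 in ATF2/7 fl (adjusted p = 3.56e-07) and by 0.99 log2 in WT (adjusted p = 2.39e-07). Sting1, the adaptor of cytosolic DNA sensing, rose by 0.51 log2 in ATF2/7 fl (adjusted p = 0.00170) and by 0.34 log2 in WT (adjusted p = 0.0226). In ATF2/7 fl the kinase gene Tbk1 (0.40 log2, adjusted p = 0.0444) and the double-stranded RNA receptor gene Tlr3 (0.24 log2, adjusted p = 0.00731) rose as well. In WT the adaptor gene Myd88 rose (0.29 log2, adjusted p = 0.0188) and Mavs, the adaptor of the RIG-I pathway, fell (-0.38 log2, adjusted p = 0.00183). The other gene that fell, Ticam1 (-0.22 log2, adjusted p = 0.0394), is named after its values were seen.

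Of 21 further tested interferon-stimulated genes, 2 rose and 1 fell in ATF2/7 fl, and 3 rose and 1 fell in WT. Nmi, encoding a partner of STAT proteins, rose by 0.35 log2 in ATF2/7 fl (adjusted p = 0.00441) and by 0.42 log2 in WT (adjusted p = 0.000589). Tdrd7 rose in ATF2/7 fl (0.58 log2, adjusted p = 0.00497) and Ifi27l2b fell there (-0.28 log2, adjusted p = 0.0257). In WT Oas1g (0.22 log2, adjusted p = 0.0308) and Parp12 (0.25 log2, adjusted p = 0.0437) rose, and Trim14, which encodes a partner of MAVS, fell (-0.28 log2, adjusted p = 0.00567). Between genotypes, 0 genes of the 6 lists were called with TNFa. There 8 had an unadjusted p under 0.05, against 13.6% of all tested genes. They were 2 of 10 receptor, kinase and STAT genes, 2 of 3 further factors and 4 of these 21 genes. The other lists gave 0 of 5 ligand genes, 0 of 4 inhibitors and 0 of 7 sensor adaptor and kinase genes. Over the 6 lists together the count is close to the share of all tested genes. Without TNFa Tlr3 was lower in ATF2/7 fl (-0.21 log2, adjusted p = 0.0443). It was 1 of 7 sensor adaptor and kinase genes, and the other lists gave 0 calls, against 2.48% of all tested genes called.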

How the data were processed

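Total RNA of 16 samples was measured, 1 single-colour Affymetrix array each. The deposited values are log2 signals that the authors made with RMA in Affymetrix Expression Console, per the submitters' processing notes. Software versions and probe positions are not given in the sources used here. Precision is limited by the number of arrays. Of 19825 probe sets, 18851 carried 1 gene symbol in the platform annotation, 974 none and 0 several. No further normalization was applied. Group means of the 16 arrays were compared in 1 limma fit (limma 3.58.1, R 4.3.3, lmFit and eBayes). Benjamini-Hochberg adjustment ran over all 11766 tested genes, and an adjusted p under 0.05 was called. Each SE and each 95% interval comes from that fit, and each SD from the 4 arrays of 1 group. Samples were grouped by their titles.

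Every member is accounted for: called members by array, the others by group means or ranges. Of each other list, at most 4 called genes per comparison are named, those of smallest p. Exceptions are Ticam1, called in WT, and the dim genes Ifnb1, Ifng and Socs1. The members and lists were chosen with earlier results of these data known. The functions were tested on simulated arrays. The alternatives were no filter, the 60th percentile as filter, averaged probe sets, robust fitting with a variance trend, array weights, quantile normalization, median centring, only the groups compared, a replicate block, and each array left out.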

Additional observations from a re-analysis of the deposited data

Results flagged for a closer look

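In 6 of 112 combinations of tested member and group, 1 sample's gap to its nearest neighbour exceeded Dixon's critical share of the range of its group, and chance alone gives about 1 in 20. Ifih1 read 8.82 log2 in ATF2/7 fl + TNFa sample 2, against 8.73 to 8.75 in the others of the group. Irf1 read 9.15 in ATF2/7 fl + TNFa sample 1, against 8.91 to 8.95. In ATF2/7 fl sample 3, Irf1 read 8.26, against 8.39 in each of the others, Ifit3 read 6.72, against 7.08 to 7.10, and Ifitm1 read 7.62, against 7.75 to 7.77. Samhd1 read 6.59 in WT + TNFa sample 2, against 6.89 to 6.93. That array also had the lowest correlation within its group.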

How the results depend on the processing

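The TNFa and genotype calls kept their direction under every alternative run. With the filter at the 60th percentile 5 members were called with TNFa in WT, since Ddx58, Isg15, Parp14 and Rtp4 were no longer tested. With only the groups compared, 720 genes were called with TNFa in WT (1269 with all groups) and 185 between genotypes with TNFa (317). Array weights gave 1095 genes with TNFa in ATF2/7 fl (704), 443 between genotypes without TNFa (292) and 617 with it. With no filter 1 member was called between genotypes with TNFa (3 with the filter), as Bst2 and Rtp4 were lost. The difference of TNFa effects gave 3 genes with the stricter filter, 5 with a variance trend and 3 with array weights, against 1. Leaving out 1 array gave 955 to 1430 genes and 8 to 10 members with TNFa in WT, 504 to 900 and 4 to 5 in ATF2/7 fl. Between genotypes it gave 198 to 435 genes and 0 to 1 members without TNFa, 192 to 340 and 1 to 3 with it, and for the difference 0 to 4 genes and 0 members. Same-numbered samples did not deviate together (r from -0.305 to 0.248), so the numbers were not taken as pairing. With the replicate block 8 members were called with TNFa in WT and 4 in ATF2/7 fl, 0 between genotypes without TNFa, 2 with it, and 0 genes for the difference. Irf7 (adjusted p = 0.0818) and Bst2 between genotypes (0.0820) were the calls lost with it. With only the groups compared, Bst2 (0.0865), Irf7 (0.0899) and Irf8 (0.0804) were lost with TNFa in WT, and Rtp4 (0.0964) between genotypes with TNFa. Irf7 was also lost with no filter (0.0809), and Irf7 (0.0666) and Bst2 between genotypes (0.0551) with median centring. The cause was not tested.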
